A study of Bos taurus with 12 samples.

Results

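Serum response factor (SRF) and the transcription factors that act with it or share its DNA-binding fold were examined in the endometrium of cows of different ages. The 10 genes were SRF, the myocardin family members MYOCD, MKL1 and MKL2, the ternary complex factors ELK1, ELK3 and ELK4, and the related factors MEF2A, MEF2C and MEF2D. They were found by gene symbol, and the array carried them as 12 transcripts and 28 probes, out of 17879 named genes, 26323 transcripts and 61333 probes. ELK1 and ELK4 each had 2 transcripts. The myocardin relatives MKL1 and MKL2, also called MRTFA and MRTFB, carried those older names on the array. MYOCD had no symbol in the array's annotation and was named through a supplementary list of transcripts that differed between old and young females. On the array's genome its neighbours were MAP2K4 and ARHGAP44, the same genes that flank MYOCD in RefSeq. MYOCD could thus be named only because it differed between these females, and its difference between them is given as a description.

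Endometrial biopsies were compared between 4 old females (OF), 4 young females (YF) and 3 contemporary cows. OF were 13 to 14 years old and nulliparous, and YF were 4 to 5 years old and primiparous, so age and parity cannot be told apart. OF and YF were Holstein clones of a single donor cow, so all of these females carry one nuclear genotype; the age and genotype of the contemporary cows are not given in the sources used here. A further contemporary cow, animal 1111, was left out by the submitters for a divergent phenotype and enters only where it is named. The biopsies of OF and YF came from intercaruncular tissue of the horn on the side of the corpus luteum, on Day 15 of a synchronised oestrous cycle. The contemporary cows were also sampled on Day 15. Each animal had its own 1-colour array, and the replicate was the animal.

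SRF binds a short DNA element, the CArG box, in the promoters of many muscle, cytoskeletal and growth-response genes. Which of these it drives depends on its partners. Myocardin is made in smooth and cardiac muscle and turns on contractile genes, whereas MKL1 and MKL2 are held in the cytoplasm by monomeric actin and enter the nucleus when actin is built into filaments. The ternary complex factors are ETS proteins that sit beside SRF and respond to MAP kinases, mostly at immediate early genes. MEF2 proteins belong to the same MADS-box family and are held in check by class IIa histone deacetylases. In the uterus, smooth muscle makes up the myometrium, and vessel walls within the endometrium also hold smooth muscle cells.

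The probes set what could be measured, and those of MYOCD, MKL1 and MEF2C are shown because their results turn on whether the signal stood above background. All of them are 60 bases long. The MYOCD probes were well above background on 3 of 12 arrays each. For MKL1, probe 1 was well above background on 12 arrays and probe 2 on 0. For MEF2C, probe 1 was well above background on 12 arrays and probe 3 on 0, although they overlap by 20 bases, in capitals here.
MYOCD probe 1: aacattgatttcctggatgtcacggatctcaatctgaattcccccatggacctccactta
MYOCD probe 2: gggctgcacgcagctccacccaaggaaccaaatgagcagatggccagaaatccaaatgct
MKL1 probe 1: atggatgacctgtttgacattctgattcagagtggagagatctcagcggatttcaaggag
MKL1 probe 2: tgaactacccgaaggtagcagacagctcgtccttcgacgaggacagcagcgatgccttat
MEF2C probe 1: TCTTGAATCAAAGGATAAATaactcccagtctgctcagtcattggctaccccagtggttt
MEF2C probe 3: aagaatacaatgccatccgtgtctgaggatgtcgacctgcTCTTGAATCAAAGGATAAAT
MEF2C probes 2 and 4 repeat probes 1 and 3 base for base. Hence the transcript values of MKL1 and MEF2C average bright probes with dim ones, and their probes are also given singly below.

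Values are log2 intensities relative to the 75th percentile of each array, so that 0 is the level of a fairly bright probe and each unit is a doubling. Levels of different genes come from different probes and are not ranked against each other. On the 12 arrays, 71.6% to 74.9% of probes were well above background and none was saturated. The intensity at the 75th percentile ranged from 968 to 1597 and was lowest in OF 2258. Across all transcripts, limma with Benjamini-Hochberg adjustment called 0% of 19755 transcripts between OF and YF, 0% of 19993 between contemporary cows and YF and 0% of 19914 between contemporary cows and OF. At an unadjusted p of 0.05 it gave 478, 606 and 911 transcripts. The 3 comparisons share animals, so their values are not independent of each other. Accordingly 0 of the 11 member transcripts that could be tested passed in any comparison, with adjusted p of at least 0.912.

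SRF was higher in OF on average, and this rested on some of the OF. SRF (ENSBTAT00000016981) lies on chromosome 23, from 16747958 to 16754754 in UMD3.1. In YF, SRF was -3.82 in animal 1069, -3.66 in 1070, -3.52 in 1072 and -3.83 in 1127. In OF, SRF was -3.86 in animal 0233, -3.17 in 0234, -3.17 in 0245 and -2.18 in 2258. Thus 3 of 4 OF lay above every YF and the other lay below every YF, so the groups overlapped. The mean log2 difference was 0.61 (SE 0.35, 95% interval -0.26 to 1.47), which is a fold of 1.53. The exact two-sided permutation test gave p = 0.143, where 0.0286 is the smallest p that 4 animals per group allow, and the adjusted p from limma was 0.999. The difference was 0.58 with probe 1 and 0.63 with probe 2, so both probes gave the same size. Without OF 2258 the log2 difference was 0.30, within slide 2 it was 0.75, and with the slide as a block 0.63. The fold change rank statistic FCROS, which the study used and which gives no error per gene, called SRF higher in OF at a fold of 1.66. FCROS called 4.94% of all transcripts in that comparison, and SRF in 1 of the 8 runs that left out an animal.

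In contemporary cows, SRF was -3.17 in animal 1068, -3.98 in 1128 and -4.09 in 1129. The first of these was as high as the middle OF and the others were below every YF. Contemporary cows differed from YF by -0.04 (SE 0.26, exact p = 0.971) and from OF by -0.65 (SE 0.48, exact p = 0.229) on the log2 scale, where 0.0571 is the smallest p that 3 against 4 animals allow. Cow 1111 had an SRF level of -3.62, within the range of the other contemporary cows.

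MYOCD, the muscle-restricted coactivator, was near or below the limit of detection in most animals and clearly measured in 2 OF. The gene (ENSBTAT00000013598) spans 31767278 to 31822920 on chromosome 19 in UMD3.1. In OF, MYOCD was -3.94 in animal 0234 and -2.31 in 2258, against -6.51 in 0233 and -6.91 in 0245. In YF, MYOCD was -7.41 in animal 1069, -8.15 in 1070, -6.64 in 1072 and -7.66 in 1127. Only OF 0233, 0234 and 2258 and YF 1072 had a probe well above background, so the other values are noise-level readings whose order carries little. OF 0234 and 2258 lay above every YF on both probes. OF 0233 did so on probe 2 (-6.11), but on probe 1 (-6.91) it lay below YF 1072 (-5.99).

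The mean log2 difference of MYOCD between OF and YF was 2.55 (SE 1.13), given without a test because of how the gene was named. No group had a probe well above background on all of its arrays, so MYOCD was not among the transcripts tested by limma. The difference was 3.24 with probe 1 and 1.86 with probe 2. It was 1.68 without OF 2258, and between 2.22 and 3.21 when any other OF or YF was left out. Within slide 2, which held 3 OF and 2 YF, it was 3.28, and within slide 1, with 1 OF and 2 YF, it was 0.49. FCROS called MYOCD higher in OF in the full comparison and in 8 of 8 runs that left out an animal. Since the name itself came from a list of FCROS calls on these arrays, that is no independent result.

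In contemporary cows, MYOCD was -7.24 in animal 1068, -7.79 in 1128 and -8.50 in 1129, and no probe stood well above background on any of these arrays. The detection limit of an array was taken as the lowest reading of any probe well above background on it. With the contemporary readings raised to the detection limit of their arrays, the OF mean was 3.26-fold higher. It was 1.78-fold higher without OF 2258 and 5.16-fold higher without OF 0245. OF 0245 was itself below background, and OF 0233 was so on probe 1. None of these folds is therefore a strict minimum. The folds are given as a description because of how the gene was named. The measured group means were -4.92 in OF and -7.84 in contemporary cows. No fold is given against YF, because YF were mostly below background as well. The plot of levels by animal shows that the spread of MYOCD among OF was wider than any other spread among these transcripts.

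**Figure D1:**
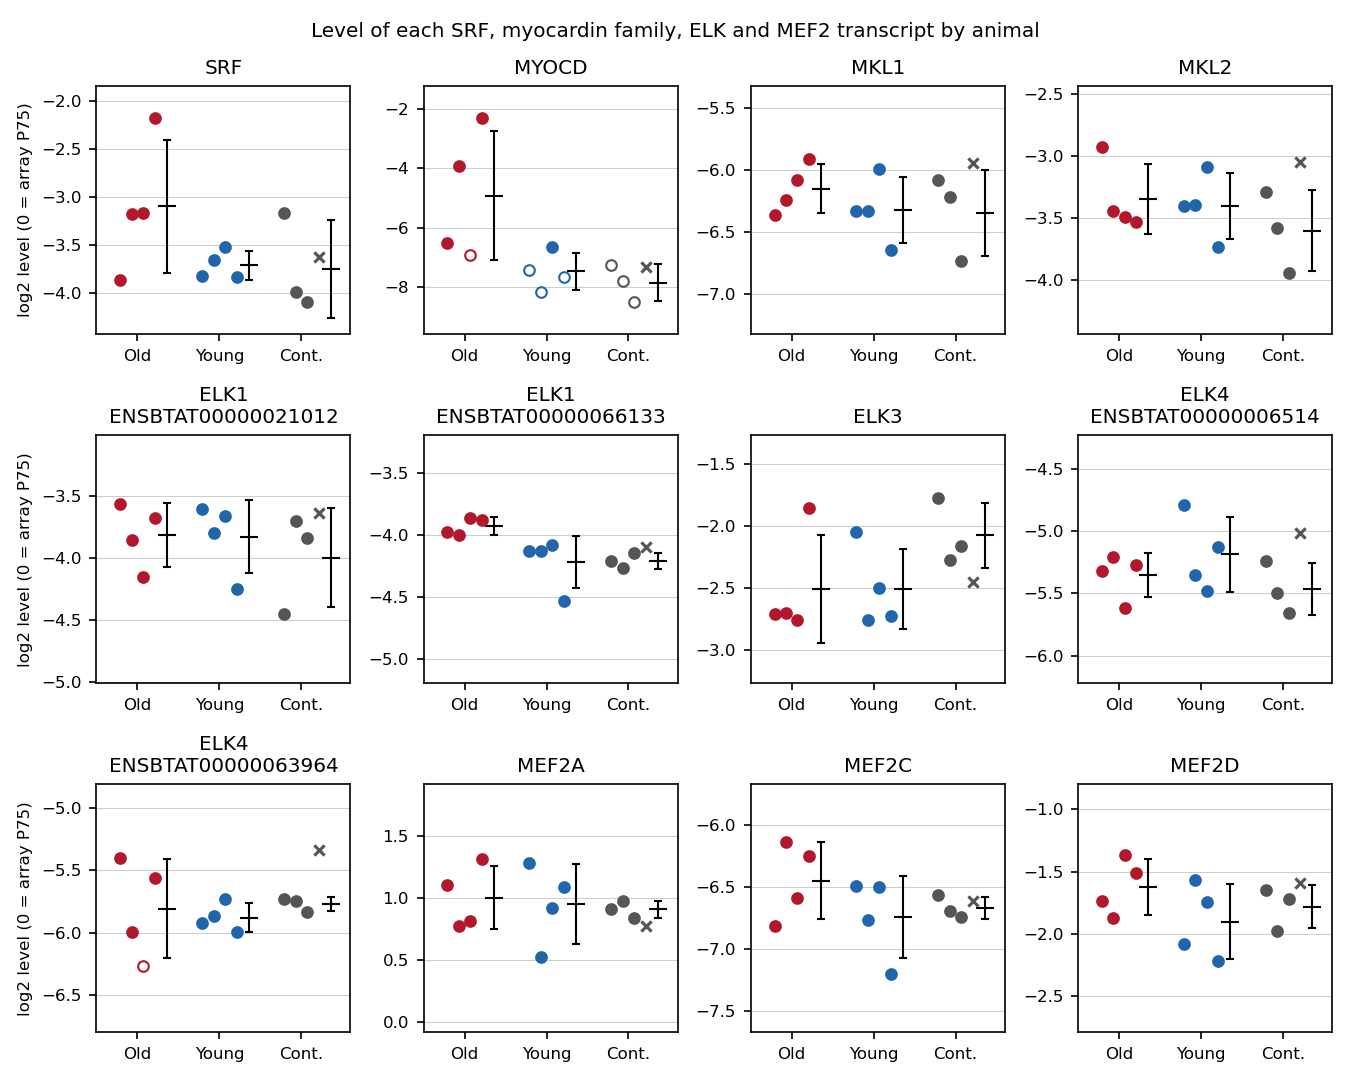
Level of each transcript by animal, as log2 intensity relative to the array's 75th percentile (P75), with a separate vertical range for each panel. Filled points had a probe well above background, open points had none, the cross is contemporary cow 1111 (not in the means), and bars give the mean ± SD of each group. OF 0234 and 2258 stand above all other animals for MYOCD, and the OF of ELK1 transcript ENSBTAT00000066133 all lie above the YF.

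MKL1 and MKL2, the actin-regulated relatives of myocardin, differed little between groups. MKL1 (ENSBTAT00000003407, chromosome 5 from 112261806 to 112372282) ranged from -6.36 to -5.91 in OF, from -6.64 to -5.99 in YF and from -6.74 to -6.08 in contemporary cows. The OF minus YF difference of MKL1 was 0.17 (SE 0.17, 95% interval -0.23 to 0.58, exact permutation p = 0.371). With its bright probe alone it was 0.23. MKL2 (ENSBTAT00000011499, chromosome 25 from 13072437 to 13283317) ranged from -3.54 to -2.93 in OF, from -3.74 to -3.09 in YF and from -3.95 to -3.30 in contemporary cows. Its difference between OF and YF was 0.06 (SE 0.19, 95% interval -0.42 to 0.53, exact permutation p = 0.771). For both genes the 3 groups overlapped. Between OF and YF the 95% intervals reached 0.58 for MKL1 and 0.53 for MKL2, so changes of that size stay within the error. For contemporary cows against OF, the differences were -0.20 for MKL1 (SE 0.20) and -0.25 for MKL2 (SE 0.23).

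Of the ternary complex factors, 1 transcript of ELK1 separated OF from the other animals and the others did not. ELK1 lies on chromosome X from 91452108, and its transcript ENSBTAT00000066133 ends at 91466887. In OF this transcript was -3.98 in animal 0233, -4.01 in 0234, -3.86 in 0245 and -3.88 in 2258. In YF it was -4.13 in animal 1069, -4.13 in 1070, -4.09 in 1072 and -4.53 in 1127. All 4 OF lay above all 4 YF, but the nearest animals were close together. The log2 difference was 0.29 (SE 0.11, 95% interval 0.02 to 0.56) and the exact permutation p was 0.0286, the smallest possible. Over all transcripts tested, 0.931% had every OF above every YF and 0.597% had every OF below every YF, against 1 and 0 of the 11 member transcripts tested. The unadjusted p from limma was 0.0774 and the adjusted p was 0.999. Within slide 2 the difference was 0.38, and without YF 1127 it was 0.18.

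Contemporary cows had values of this ELK1 transcript of -4.22 in animal 1068, -4.27 in 1128 and -4.15 in 1129. All 3 lay below all 4 OF, by a mean of -0.28 (SE 0.05, exact permutation p = 0.0571), and within the range of YF. Between contemporary cows and OF, 2.93% of transcripts had every contemporary cow below every OF and 2.86% had every one above, against 1 and 0 of the 11 member transcripts tested. Between contemporary cows and YF those shares were 2.32% and 1.51%, against 0 and 0 of 11. MYOCD is not counted here, because most of its readings were below background. The transcript is read by 2 different sequences, each spotted as 2 probes. The first sequence gave OF minus YF differences of 0.51 and 0.45 in its copies, and the second gave 0.03 and 0.16. The other ELK1 transcript (ENSBTAT00000021012) differed by 0.01 (SE 0.19, exact permutation p = 0.914). The difference thus came mainly from 1 probe sequence and was not shared by the other probes of the gene.

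ELK3, a factor that can repress as well as activate SRF targets, was the member with the highest mean difference between contemporary cows and YF. ELK3 (ENSBTAT00000001974, chromosome 5 from 60823240 to 60891359) was -1.78 in contemporary cow 1068, -2.28 in 1128 and -2.17 in 1129. In YF it was -2.05 in animal 1069, -2.76 in 1070, -2.50 in 1072 and -2.72 in 1127. The contemporary values were high and only YF 1069 lay among them. The log2 difference was 0.43 (SE 0.23, 95% interval -0.16 to 1.02, exact permutation p = 0.171). In OF, ELK3 was -2.72 in animal 0233, -2.70 in 0234, -2.76 in 0245 and -1.85 in 2258. Here 3 OF lay close together and animal 2258 stood apart, at the level of the highest contemporary cow. OF minus YF was 0.00 (SE 0.27), and -0.22 without OF 2258. The 2 probes of ELK3 share 55 bases and are close to being 1 measurement.

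ELK4 was read by 2 transcripts that share 1 probe sequence. ENSBTAT00000006514 (chromosome 16 from 3208946 to 3219934) differed by -0.17 between OF and YF (SE 0.18, exact permutation p = 0.429). ENSBTAT00000063964 differed by 0.07 (SE 0.21, exact permutation p = 0.771). These small differences had opposite signs, and both intervals included 0. The shared sequence gave 0.11 and 0.28 in its 2 spots, whereas the private probes gave -0.45 and -0.14. The last of these probes was well above background in only 2 of 4 OF. In OF 0245 no probe of ENSBTAT00000063964 was well above background.

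MEF2A, MEF2C and MEF2D, the MADS-box relatives of SRF, overlapped between all 3 groups. MEF2A (ENSBTAT00000014074, chromosome 21 from 7045098 to 7225412) was measured well above the 75th percentile of the arrays, between 0.52 and 1.31 over the 11 animals. Its OF minus YF difference was 0.05 (SE 0.21, 95% interval -0.45 to 0.55). MEF2C (ENSBTAT00000035014, chromosome 7 from 90616543 to 90784162) differed by 0.29 (SE 0.23, exact permutation p = 0.286), or by 0.28 and 0.38 on its bright probes. MEF2D (ENSBTAT00000066030, chromosome 3 from 14380072 to 14413740) differed by 0.28 (SE 0.19, exact permutation p = 0.171). For MEF2C and MEF2D, 2 of 4 OF lay above every YF. Against YF, contemporary cows differed by -0.04, 0.08 and 0.12 for MEF2A, MEF2C and MEF2D, each within its SE.

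**Figure D2:**
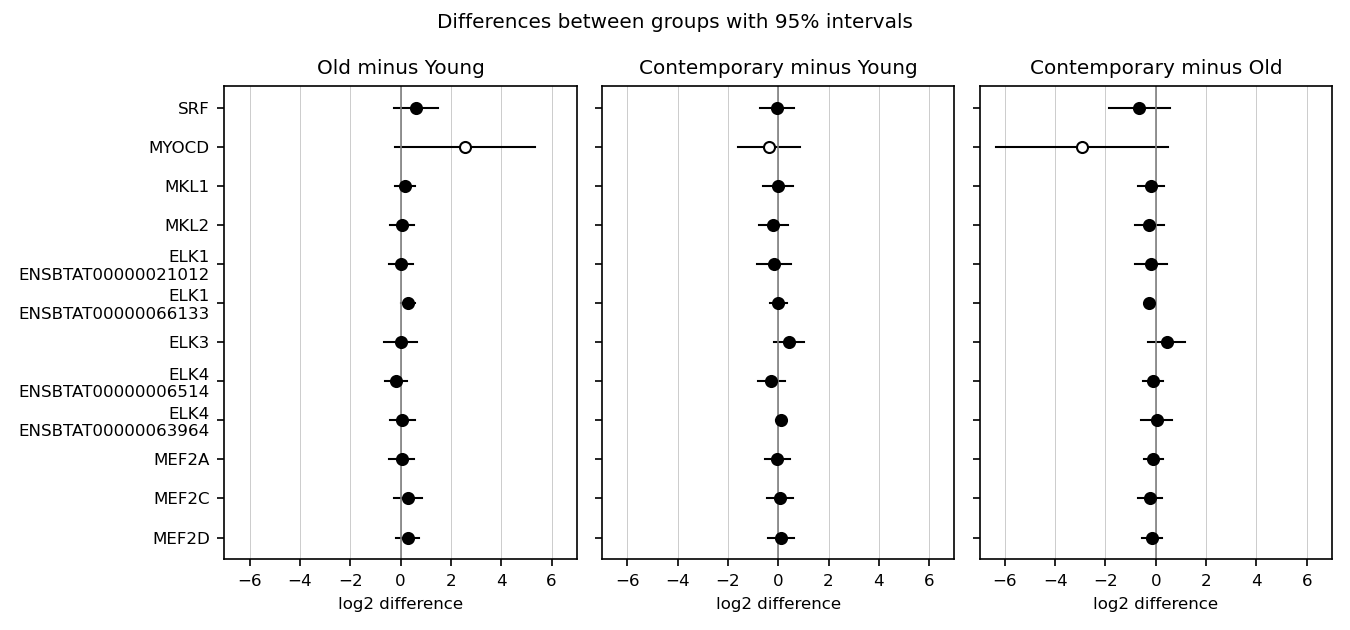
Log2 differences between group means for each transcript (horizontal axis) with 95% intervals from the spread of the animals. Filled points were tested by limma and the open point, MYOCD, was not. Apart from MYOCD, the points lie within 0.65 of 0, and the intervals that exclude 0 are those of the ELK1 transcript ENSBTAT00000066133 between OF and YF and between contemporary cows and OF.

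The members also differed in how far animals of the same group varied. The within-group SD of MYOCD was 1.42, above 98.2% of 20082 transcripts, and that of SRF was 0.50, above 72.5%. Those transcripts had passed the detection filter, which MYOCD had not. The median SD was 0.34. The ELK1 transcript ENSBTAT00000066133 was among the steadiest, with an SD of 0.14, above only 4.74% of transcripts. It averages 4 probes, whereas most member transcripts average 2, and the part of probe number in its SD was not tested. The other 9 member transcripts had an SD of 0.24 to 0.36.

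The same animals that were high in MYOCD were high in smooth muscle genes. A contractile score was computed from the 14 of 15 listed genes that were matched by symbol. The other, ACTG2, was not matched, although the study reported it as higher in OF. Each matched gene was centred on its mean over the animals and the centred values were averaged. All 14, among them ACTA2 and MYH11, the actin and myosin of smooth muscle, were well above background on all 11 arrays. The score was 3.62 in OF 2258, 2.08 in 0234, -0.34 in 0245 and -0.86 in 0233. It ranged from -1.20 to 0.07 in YF and from -0.83 to -0.45 in contemporary cows. Thus 2 OF stood well above all other animals and the other 2 lay within the range of YF. In tissue samples such as these, more smooth muscle cells and more RNA per cell cannot be told apart.

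Within groups, MYOCD and SRF had the steepest slopes on this score, and neither passed the test in the fit used for all transcripts: SRF missed the threshold and MYOCD was below the filter. The slope of SRF was 0.29 log2 units per unit of score (SE 0.08), with an adjusted p of 0.0791 from limma over 11 animals and group as covariate. Over all transcripts outside the list, 2.62% passed with a rising slope and 0.892% with a falling one. The deviations of SRF from the group means correlated with those of the score with r = 0.78 (exact permutation p = 0.00492) and a Spearman correlation of 0.61 (exact permutation p = 0.0616). Without OF 2258 and 0234, r was 0.54 over 9 animals, so the relation rests in part on those 2. With the score as a covariate, the OF minus YF difference of SRF was 0.11 in place of 0.61.

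MYOCD had a slope of 1.02 (SE 0.11, adjusted p = 0.00109) in a fit without the filter on dim probes, in which 2.04% of transcripts rose with the score. No MYOCD probe was well above background in 7 of the 11 animals. Without OF 2258 the slope was 0.99 with an adjusted p of 0.0916. Without both high OF it was 0.80 (SE 0.43, adjusted p = 0.871), over animals whose MYOCD was mostly below background. The slope kept its direction in all 12 of these leave-out fits, but its call rested on OF 2258. MYOCD was named through its difference between OF and YF on these arrays, where the same high OF stood out. Its slope is therefore given as a description.

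MEF2C and ELK3 had the next steepest slopes. MEF2C had a slope of 0.15 per unit of score (SE 0.06, adjusted p = 0.162), with r = 0.73 (exact permutation p = 0.0373) and a Spearman correlation of 0.85 (exact permutation p = 0.0182). Its r was 0.84 without the 2 high OF. These values use the mean of its bright probes and of its probes near background. The correlations of MEF2C were not computed on the bright probes alone. ELK3 had a slope of 0.18 (SE 0.07, adjusted p = 0.181), which was 0.07 without OF 2258. MKL1, with a slope of 0.09 (SE 0.07), and MKL2, with a slope of -0.05 (SE 0.08), had adjusted p of 0.499 and 0.751. The permutation p-values of the 12 correlations, those of SRF included, were not adjusted for their number. The slopes were adjusted by limma over all transcripts in the fit, and MYOCD entered only the fit without the filter.

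**Figure D3:**
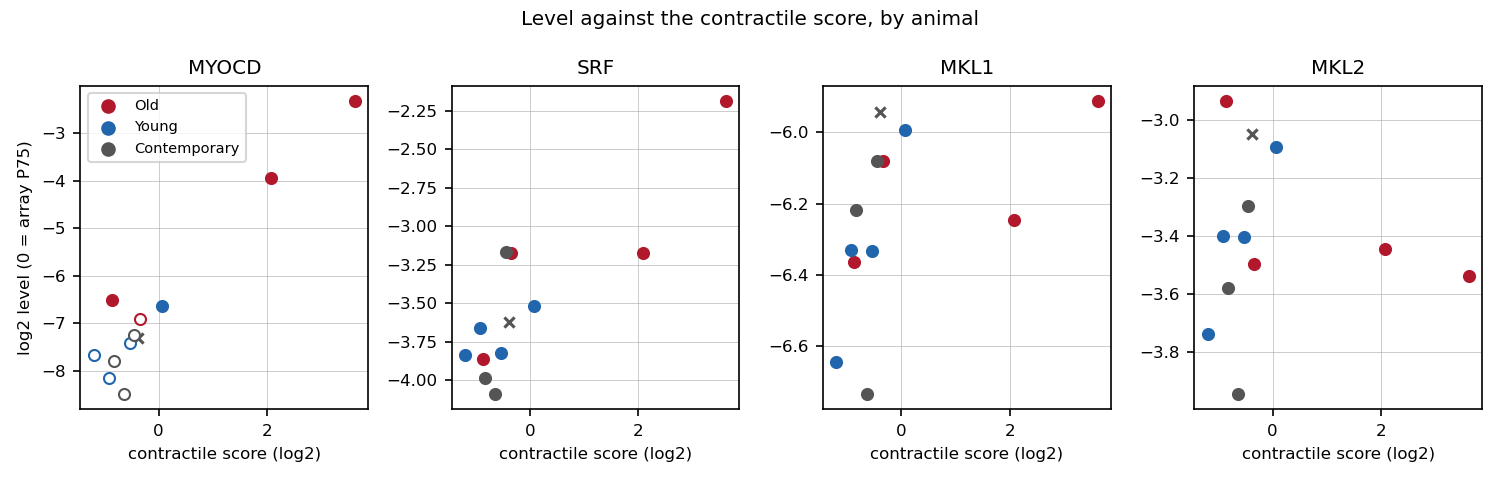
Level of MYOCD, SRF, MKL1 and MKL2 (vertical axes, log2 relative to the array's 75th percentile, with separate ranges) against the contractile score (horizontal axis) in each animal. Open points had no probe well above background and the cross is contemporary cow 1111. OF 0234 and 2258, at scores of 2.08 and 3.62, were the highest animals for MYOCD, while MKL2 was not raised in them.

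Other cell types were checked by their markers, and OF 2258 had the lowest epithelial score. The epithelial score, over 7 of 7 genes that included EPCAM and KRT8, was -1.80 in OF 2258 and -1.02 in YF 1069, and lay between -0.29 and 0.91 in the other 9 animals. The stromal score, over 7 of 7 genes, ranged from -0.52 to 0.26 in OF and from -0.26 to 0.66 in YF. Endothelial genes ranged from -0.18 to 0.17 in OF and from -0.75 to 0.04 in YF, pericyte genes from -0.54 to 0.10 and from -0.74 to 0.57, and leukocyte genes from -0.36 to 0.29 and from -0.29 to 0.19. Contemporary cows ranged from -0.29 to 0.31 for epithelial, 0.07 to 0.36 for stromal, -0.23 to 0.74 for endothelial and 0.10 to 0.60 for pericyte genes. Of the 7 striated muscle genes, MYH7, TNNT3 and MYOG were well above background on 11 of 11 arrays, TNNI2 on 8, and MYH2, CKM and TNNC2 on 0. The striated muscle score, over all 7 genes with the undetected ones included, was 0.37 in OF 2258 and 0.21 in OF 0234. It lay between -0.44 and 0.10 in the other 9 animals. The pericyte score likewise held NOTCH3, well above background on 3 arrays, and the leukocyte score CD163 and MS4A1, each on 1. The part of tissue composition in the results for SRF and MYOCD was not tested.

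Among known targets, contractile and immediate early genes had higher means in OF. Of 14 contractile genes, 14 had a positive OF minus YF difference, with a median of 1.84. Of 15 cytoskeletal genes, 15 were positive, with a median of 0.79, and of 9 immediate early genes, 9 were positive, with a median of 1.08. Over all transcripts 51.7% were positive and the median was 0.01. None of these genes passed the adjusted test, and the lists were picked with earlier results of these data known. Genes of a list were read in the same animals, so these counts are not independent of each other. Without OF 2258 the medians were 0.96, 0.25 and 0.42, with 13 of 14, 13 of 15 and 9 of 9 positive. Without OF 0234 they were 1.49, 0.73 and 1.55. Medians without both were not computed. The contractile score was -0.86 in OF 0233 and -0.34 in OF 0245, within the range of YF.

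In the contractile list, KCNMB1, a subunit of a potassium channel of smooth muscle, differed by 2.89 (SE 1.49) and MYH11 by 2.80 (SE 1.37). At the other end, MYL9, a myosin light chain, differed by 0.13 (SE 0.23) and TPM1, a tropomyosin, by 0.65 (SE 0.56). In the cytoskeletal list, CCN1, a matrix protein induced by growth signals, differed by 1.58 (SE 1.22) and FLNA, a filamin that links actin filaments, by 1.57 (SE 0.85). TPM4 and CCN2 differed by 0.07 and 0.15. In the immediate early list, FOS and EGR1, transcription factors induced within minutes of a stimulus, differed by 1.85 (SE 1.32) and 1.69 (SE 1.33), and IER3 and MCL1 by 0.69 and 0.77.

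Against YF, contemporary cows showed another order of the lists. Their contractile genes had a median difference of 0.02, with 8 of 14 positive, and their cytoskeletal genes 0.03, with 9 of 15 positive. Their immediate early genes had a median of 0.67, with 9 of 9 positive. Here FOS differed by 1.41 (SE 1.25) and EGR1 by 1.26 (SE 1.18). Over all transcripts 45.4% were positive and the median was -0.02. Against OF, 0 of 14 contractile genes and 0 of 9 immediate early genes were positive, with medians of -1.91 and -0.46, beside 43.6% and -0.04 over all transcripts. Again 0 genes of any list passed.

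The upstream routes to SRF and MEF2 had medians closer to 0 than those targets. MAP kinase genes had a median OF minus YF difference of 0.18, with 7 of 9 positive. MAPK7 and MAPK14 differed by 0.29 and 0.28, MAPK8 by -0.04, and MAPK3, the kinase ERK1, by -0.52 (SE 0.20, adjusted p = 0.999 by limma).

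Class IIa histone deacetylases and MEF2 partners had a median of 0.17, with 8 of 10 positive. MAMSTR, a MEF2 coactivator, differed by 0.96 (SE 0.75) and HDAC9 by 0.72 (SE 0.57), whereas CREBBP and MEF2B differed by -0.02 and -0.01. Partners and repressors of SRF and myocardin had a median of 0.09, with 5 of 9 positive. KLF4, which represses smooth muscle genes, differed by 0.75 (SE 0.89) and GATA6 by 0.37 (SE 0.17), and HOPX, which blocks SRF from DNA, and CSRP2 by -0.34 and -0.27. In these 3 lists 0 genes passed the adjusted test.

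**Figure D4:**
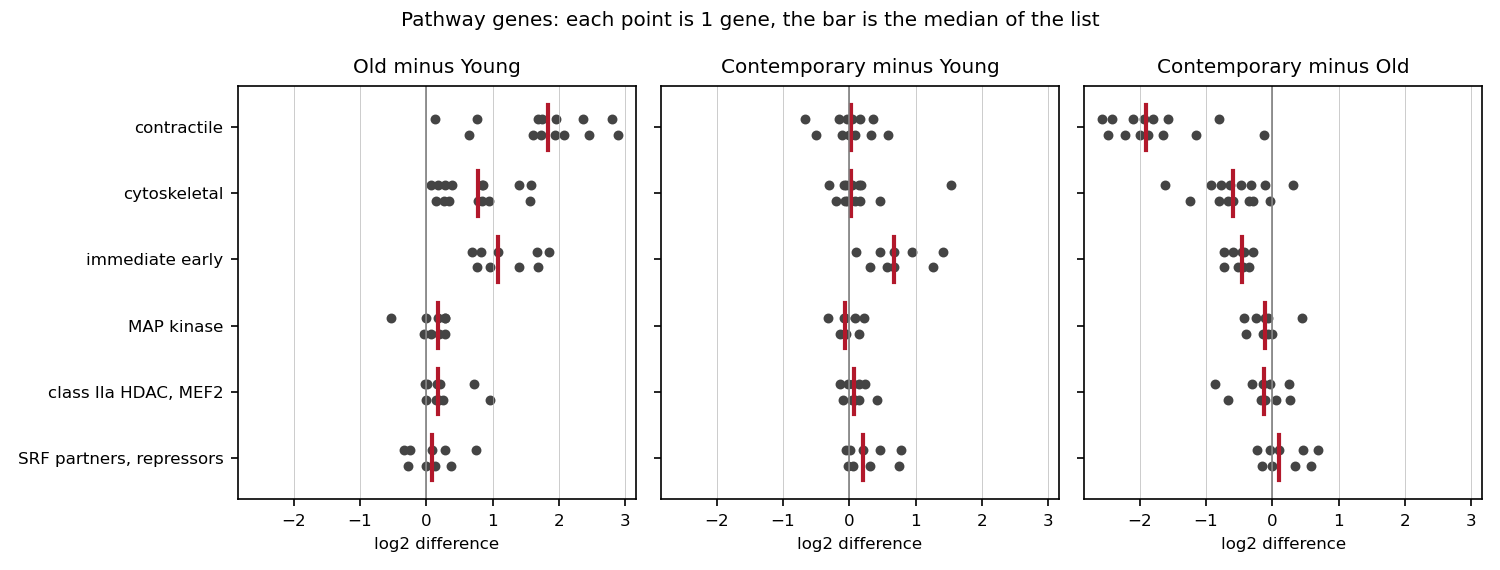
Log2 differences between group means (horizontal axis) of the tested genes of 6 pathway lists, 1 point per gene, with the median of each list as a bar. Contractile genes had a median of 1.84 between OF and YF, 0.02 between contemporary cows and YF and -1.91 between contemporary cows and OF, while immediate early genes had positive medians in the first 2 panels.

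The transcripts whose levels ran most like SRF over the 11 animals were JPT1 (r = 0.97), FGFR3 (r = 0.97), ITPKB (r = 0.96), TMEM132D (r = 0.95) and IL17RA (r = 0.95), out of 14536 named transcripts. Those most like MYOCD were CABLES2 (r = 0.98), DTNA (r = 0.98), SLIT2 (r = 0.98), SLC4A7 (r = 0.97) and SYNPO2 (r = 0.97), the last being a contractile list gene. Without OF 2258 their r ranged from 0.88 to 0.92 for SRF and from 0.93 to 0.96 for MYOCD. The transcripts had been picked with that animal included. With OF 2258 left out, MYOCD was -3.94 in OF 0234 and -6.51 or lower in the other animals, mostly below background. Among the members, SRF was most like MYOCD (r = 0.85), and this was 0.61 without OF 2258, where MKL1 was more like SRF (r = 0.69) and MEF2C more like MYOCD (r = 0.68). All points share the scaling of their array, and the values describe these 11 animals only.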

How the data were processed

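The authors deposited, for each of 12 one-colour custom bovine Agilent arrays, Feature Extraction 10.7.3.1 output with a background-corrected processed intensity per spot, built on UMD3.1. The 1319 controls were dropped, as were 66 probes that the software had marked as outliers. From the intensity, log2 was taken and the array's 75th percentile subtracted; spots were averaged per probe and probes per transcript. Symbols came from the array (22172 transcripts), RefSeq accessions (17) and a supplementary list (68), and 4066 had none.

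Comparisons used limma 3.58.1 in R 4.3.3 (lmFit, eBayes; two-sided, Benjamini-Hochberg at 0.05) on transcripts detected by at least 1 probe (well above background) throughout 1 of the groups, with only the compared groups in a fit, and exact permutation tests per transcript. The p-values set each difference or slope against the spread between animals, and the number of arrays limits precision. With 1 array per animal, animal, biopsy and array variation cannot be told apart in that spread. FCROS was coded from its description (f-values of 0.025 and 0.975, fold 1.5, trim 0.25), whereas the study used it as main test. Limma was tested on simulated data. One further gene list is not reported here. The members and lists were chosen with earlier results of these data known. Named were all members, the highest and lowest 2 differences of each list, and the 5 transcripts most like SRF and MYOCD; FOS and EGR1 were repeated for contemporary cows. Alternatives were quantile normalization, median centring, normexp (offset 50) on mean and background intensity, brightest probe, single probes, no dim filter, slide block, all groups in 1 fit, array weights, FCROS, contractile score as covariate, animal 1111, and each animal left out. Within-slide fits, the slide block with animal 1111 and dim probes left out of the mean were added after seeing the data. So were the MYOCD slope without dim filter and animals, and the MYOCD fold over the detection limit without each OF.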

Additional observations from a re-analysis of the deposited data

Results flagged for a closer look

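Over 26 groups of 4 animals checked (the 12 transcripts and the contractile score in OF and in YF), 3 had an animal far from the other 3, with a gap to its neighbour of over 0.829 of the whole range. Chance flags about 1 in 20 such groups. MKL2 was -2.93 in OF 0233, against -3.54 to -3.44 in the other OF. The ELK1 transcript ENSBTAT00000066133 was -4.53 in YF 1127, against -4.13 to -4.09 in the other YF, and without that animal the OF minus YF difference was 0.18 in place of 0.29. ELK3 was -1.85 in OF 2258, against -2.76 to -2.70 in the other OF. OF 2258 was also the animal with the highest contractile score and the lowest epithelial score.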

How the results depend on the processing

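limma called 0 of the member transcripts in each of the 3 comparisons and for the slope under the alternatives listed here, apart from the slope of MYOCD in the fit without the filter on dim probes (1.02, adjusted p = 0.00109, and 0.000771 to 0.0916 with an animal left out). The slope of MYOCD is given as a description because of how the gene was named. Of 930 recomputed differences and slopes of the members, 843 kept their direction and 87 changed it, and the cause was not tested. The OF minus YF differences of SRF, MKL1, MEF2C and the ELK1 transcript ENSBTAT00000066133 stayed positive under all alternatives. Over all transcripts, 0 passed between OF and YF in limma under each alternative, and FCROS called 1300. Between contemporary cows and YF, 1 passed with quantile normalization, 2 with all 3 groups in 1 fit, 1 with array weights, 4 with cow 1111, 3 with cow 1111 and the slide block, and 0 to 1 with an animal left out, and FCROS called 1113. Between contemporary cows and OF, 26 passed with array weights, 2 with cow 1111 and 0 to 1 with an animal left out, and FCROS called 1422. On the contractile score, 705 transcripts passed, against 443 with quantile normalization, 462 with the slide as a block, 354 in OF and YF alone, and 19 to 1510 with an animal left out, the lowest without OF 2258.

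The log2 differences and slopes that changed direction had the following values. With normexp, ELK4 ENSBTAT00000006514 0.043 for OF minus YF, ELK1 ENSBTAT00000066133 -0.0087 and ELK4 ENSBTAT00000063964 -0.0036 for contemporary cows minus YF, ELK4 ENSBTAT00000063964 -0.16 for contemporary cows minus OF. With the slide as a block, ELK1 ENSBTAT00000021012 -0.0081, ELK3 -0.069 and MEF2A -0.044 for OF minus YF, SRF 0.080 and MKL1 0.14 for contemporary cows minus YF, ELK4 ENSBTAT00000063964 -0.11 for contemporary cows minus OF. With array weights, MKL2 -0.079, ELK1 ENSBTAT00000021012 -0.057, ELK3 -0.11, ELK4 ENSBTAT00000006514 0.056, ELK4 ENSBTAT00000063964 -0.11, MEF2A -0.029 and MEF2D -0.017 for OF minus YF, ELK1 ENSBTAT00000066133 -0.061, MEF2A 0.092 and MEF2D -0.089 for contemporary cows minus YF, ELK1 ENSBTAT00000021012 0.023 and MEF2A 0.10 for contemporary cows minus OF. With the contractile score as a covariate, ELK1 ENSBTAT00000021012 -0.072, ELK3 -0.31 and MEF2A -0.036 for OF minus YF, MEF2C 0.011 for contemporary cows minus OF. With slide 2 alone, ELK3 -0.034 and MEF2A -0.12 for OF minus YF, SRF 0.080 and MKL1 0.14 for contemporary cows minus YF, ELK4 ENSBTAT00000063964 -0.11 for contemporary cows minus OF. With probe 2 alone, ELK1 ENSBTAT00000021012 -0.0075, ELK4 ENSBTAT00000006514 0.11 and ELK4 ENSBTAT00000063964 -0.14 for OF minus YF, ELK1 ENSBTAT00000066133 -0.090 for contemporary cows minus YF. With probe 1 alone, ELK3 -0.020 for OF minus YF, ELK4 ENSBTAT00000006514 0.23 and ELK4 ENSBTAT00000063964 -0.060 for contemporary cows minus OF. With quantile normalization, MKL1 0.026 for contemporary cows minus YF. With median centring, SRF 0.0034 and MKL1 0.023 for contemporary cows minus YF. With the brightest probe, ELK1 ENSBTAT00000066133 -0.034 for contemporary cows minus YF, ELK4 ENSBTAT00000006514 0.23 and ELK4 ENSBTAT00000063964 -0.060 for contemporary cows minus OF, ELK4 ENSBTAT00000063964 -0.023 for the slope on the contractile score. With contemporary cow 1111, MKL1 0.080 for contemporary cows minus YF. With the slide block and contemporary cow 1111, SRF 0.040, MKL1 0.17 and MKL2 0.047 for contemporary cows minus YF. With probe 3 alone, ELK1 ENSBTAT00000066133 -0.034 for contemporary cows minus YF. With an animal left out, the ranges that crossed 0 were as follows. For OF minus YF, MKL2 from -0.085 to 0.16, ELK1 ENSBTAT00000021012 from -0.13 to 0.13, ELK3 from -0.22 to 0.15, ELK4 ENSBTAT00000063964 from -0.065 to 0.23, MEF2A from -0.094 to 0.16. For contemporary cows minus YF, SRF from -0.33 to 0.13, MKL1 from -0.15 to 0.18, ELK1 ENSBTAT00000021012 from -0.32 to 0.057, ELK1 ENSBTAT00000066133 from -0.093 to 0.056, MEF2A from -0.19 to 0.067, MEF2C from -0.078 to 0.16. For contemporary cows minus OF, MKL1 from -0.33 to 0.00031, ELK1 ENSBTAT00000021012 from -0.33 to 0.045, ELK4 ENSBTAT00000063964 from -0.11 to 0.18, MEF2A from -0.17 to 0.011. For the slope on the contractile score, MKL2 from -0.088 to 0.044, ELK1 ENSBTAT00000021012 from -0.012 to 0.13, ELK4 ENSBTAT00000063964 from -0.058 to 0.17, MEF2A from -0.062 to 0.11, MEF2D from -0.041 to 0.055.

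No paired analysis was possible because the groups share no replicate numbers. Each value rests on 3 or 4 animals per group. Values of MYOCD, of MKL1 probe 2 and of MEF2C probes 3 and 4 lay near background, where differences are compressed or noise. The same held for ELK4 ENSBTAT00000063964 in some OF. Contemporary cows other than 1111 lay on slide 2 only.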
